A study of Mus musculus with 4 samples.

Results

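The expression of 10 genes of the NRF2 oxidative stress pathway was measured in mouse embryonic fibroblasts (MEF cells), wt or Top2β-null. The genes were taken by name (Nfe2l2, Keap1, Nqo1, Hmox1, Gclc, Gclm, Srxn1, Txnrd1, Slc7a11 and Gsta4), and each matched 1 of the 54842 gene identifiers of the deposited counts table. The assay was sequencing of total RNA after removal of ribosomal RNA, with 2 wt and 2 Top2β-null libraries, all from untreated cells. Top2β is a type II DNA topoisomerase, an enzyme that passes 1 DNA double strand through another, and the series asks about a topological role in the transcription of major satellite repeats. Both lines were grown in the same kind of medium, which contained β-mercaptoethanol, a thiol reducing agent, so the pathway was read here in cells without added oxidant and with added thiol. The study's methods give different sources for the wt line and for the Top2β-null line, which was derived from Top2β-null mice. Each genotype was thus represented by cells of 1 origin, and loss of Top2β and origin of the cells cannot be told apart. The labels do not say whether the 2 libraries of a group came from separate cultures, so that p-values measure the spread between these libraries only.

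NRF2, encoded by Nfe2l2, is a transcription factor that switches on genes against oxidants and electrophiles. In unstressed cells KEAP1 binds NRF2 and presents it to a CUL3 ubiquitin ligase, which leads to its degradation, whereas oxidants or electrophiles modify cysteines of KEAP1 and let newly made NRF2 reach the nucleus. There NRF2 pairs with a small MAF protein and binds antioxidant response elements near its target genes. The level of Nfe2l2 mRNA is therefore only 1 input to the activity of the protein, which was not measured here. Its targets make glutathione (Gclc, Gclm, Slc7a11), support the thioredoxin and peroxiredoxin system (Txnrd1, Srxn1), reduce quinones (Nqo1), degrade haem (Hmox1) and conjugate lipid aldehydes (Gsta4).

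The core of the antioxidant response element reads TGACNNNGC. It was searched on both strands in the RefSeq promoter windows of GRCm38.p6, which run from 250 bases before to 50 bases after each start site. The related AP-1 site, TGACTCA, was searched in the same way. On the opposite strand it is spelled TGAGTCA. Both motifs begin with the same 4 letters, and a stretch that fits both would count for both. Windows were given for 7 of the 10 genes, and for Hmox1, Gclc and Gsta4 none was matched. Of the 9 windows, 3 of them for Txnrd1, 4 held the core of the element, against 12.4% of all 32851 windows. The fourth of these, in Srxn1, lay after the start site and is not shown. AP-1 sites were in 1 of the 9 windows, that of Srxn1, against 5.2% of all windows. Stretches are shown because they hold the letters that NRF2 and its relatives are known to read, at 1 gene with higher and 3 genes with lower counts in Top2β-null MEF cells. They are written 5′ to 3′ along the strand of the gene, with the motif in capitals. The first base of the motif lay 240 bases before the start site in Nfe2l2, 134 in Gclm, 92 in Txnrd1, and 102 and 45 in Srxn1, and all but the first read on the opposite strand. For Txnrd1 this start site lies inside the gene (window from 82858956 to 82859255). The window at the start of the gene (82833701 to 82834000) did not hold the element.
Nfe2l2, chr2:75704885-75704913, reverse strand: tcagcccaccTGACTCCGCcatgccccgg
Gclm, chr3:122245413-122245441, forward strand: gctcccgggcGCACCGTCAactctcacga
Txnrd1, chr10:82859104-82859132, forward strand: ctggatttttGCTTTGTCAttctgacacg
Srxn1, chr2:152105412-152105438, forward strand: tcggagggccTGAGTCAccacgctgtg
Srxn1, chr2:152105469-152105495, forward strand: aaattcacccTGAGTCAgcggccgggc
These 5 lines give positions on GRCm38. The lines of Nfe2l2, Gclm and Txnrd1 show the core of the element, and those of Srxn1 show the AP-1 site. Other spellings of the element were not searched. A match of letters is a description and does not show binding. In Nqo1, Keap1, Slc7a11 and the other windows of Txnrd1 the letters of the element were not found.

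Total counts ran from 133116830 to 149647278 per library. Counts were scaled by edgeR's TMM factors to a common effective library size and are called normalized counts. Top2b, the targeted gene, had 18259 and 18465 normalized counts in wt and 3879 and 3789 in Top2β-null MEF cells, which is 20.9% of the wt mean (edgeR, log2 fold change -2.26, standard error 0.0271, adjusted p = 6.56e-19). Rarb, on the opposite strand, shares 1793 bp or 12.3% of the exon length of Top2b, and its part in the remaining counts was not tested. All 8 fibroblast markers were over 100 normalized counts in both groups, although 3 of them were called higher and 2 lower in Top2β-null MEF cells. Their summed level was 1300291.6 to 1324936.9 normalized counts in wt and 878655.7 to 883433.7 in Top2β-null libraries, with 5 of the 8 lower by mean. Of 8 macrophage markers, Tyrobp and Adgre1 had 0 counts in every library and Ptprc at most 6.76 normalized counts, while Cd68 and Csf1r were over 100 in both groups. The summed level of the macrophage markers was 2426.4 to 2504.6 normalized counts in wt and 1353.6 to 1354.9 in Top2β-null libraries. Its members went opposite ways, Cd68 from a mean of 1665 to 296 and Csf1r from 753 to 970 normalized counts, with Itgam and Fcer1g also higher. That of 6 epithelial markers was 72.4 to 73.7 in wt and 22.8 to 25.8 in Top2β-null libraries, with Krt8 and Cdh1 lower. Epcam, Krt18 and Krt14 were higher by mean, at no more than 6.93 normalized counts in any library. For 6 endothelial markers the sum was 212.5 to 239.2 in wt and 366.6 to 369.4 in Top2β-null libraries, with Kdr and Vwf higher and Tek lower. The part of these markers in the results was not tested. In such bulk RNA, fewer cells that express a gene and less RNA per cell cannot be told apart.

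The 10 genes did not move together. With an adjusted p below 0.05 (edgeR's quasi-likelihood test, Benjamini-Hochberg adjustment over 26566 genes and repeat families), 4 were higher in Top2β-null MEF cells (Gsta4, Nfe2l2, Hmox1 and Gclc), 5 were lower (Nqo1, Gclm, Srxn1, Slc7a11 and Txnrd1) and Keap1 did not pass. Of all 25085 genes tested, 32.8% passed as higher and 33.7% as lower, and among the 16656 genes with a mean over 100 normalized counts, as all 10 had, 77.6% passed in 1 direction or the other. By the cut-offs of the study's methods (adjusted p below 0.05, absolute log2 fold change above 1, mean normalized count above 100), Gsta4 was called higher and none of the 10 was called lower, against 5.52% and 5.25% of all genes. Both Top2β-null libraries lay above both wt libraries for 4 genes and below both for 5, an arrangement that 40.4% and 41.5% of all genes showed. The median log2 fold change of the 10 was -0.082, and that of all genes over the mean cut-off was -0.015. The share of the 10 genes that passed was thus near that of other genes of such depth, and the genes differed from each other in direction and size.

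**Figure D1:**
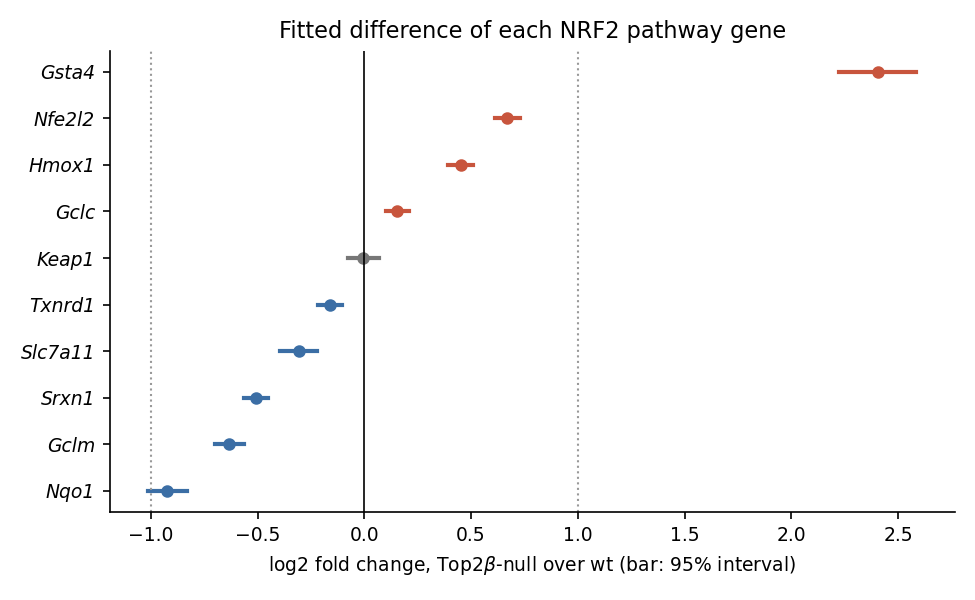
Fitted log2 fold change of each gene in Top2β-null over wt MEF cells (point) with its 95% interval (bar), red where the adjusted p was below 0.05 and the gene was higher, blue where it was lower and grey where it did not pass. Dotted lines mark -1 and 1, and Gsta4 at 2.41 lies beyond them, while Nqo1 at -0.92 lies just inside.

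Nfe2l2 (chromosome 2 from 75675513 to 75704641, reverse strand of GRCm38, the assembly also called mm10) encodes NRF2 itself. It had 5776 and 5839.8 normalized counts in wt and 9133 and 9353 in Top2β-null MEF cells. Both Top2β-null libraries were above both wt libraries, and the means lay 1.59-fold apart (edgeR, log2 fold change 0.67, standard error 0.0267, adjusted p = 1.78e-12). Among genes of 0.5 to 2 times its mean count, 768 of 4173 genes (18.4%) differed by as much or more in either direction. Keap1 (chromosome 9 from 21229730 to 21239361, reverse strand), the inhibitor, had 4450.0 and 4250.0 normalized counts in wt and 4336 and 4340.0 in Top2β-null MEF cells. The groups overlapped, since both Top2β-null libraries fell between the wt libraries. The fitted log2 fold change was -0.0037 with a 95% interval from -0.076 to 0.068 (edgeR, standard error 0.0337, adjusted p = 0.932), so that a difference of more than 0.076 in either direction lay outside the interval. An antisense gene, Gm16754, shares 510 bp or 10.9% of the exon length of Keap1 and had 782 to 848 normalized counts over the 4 libraries. The library kit keeps the strand, but the strand setting of the counting is not given in the sources used here, so reads of the shared stretch may fall to either gene.

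The log2 ratio of Nfe2l2 to Keap1 counts, which needs no scaling between libraries, was 0.38 and 0.46 in wt and 1.07 and 1.11 in Top2β-null MEF cells. Both Top2β-null libraries were above both wt libraries, so the means lay 0.67 apart, with a replicate SD (pooled) of 0.0443. An exact two-sided permutation test gave p = 0.333, the smallest value that 2 libraries against 2 allow, so no ratio can pass a threshold of 0.05. In linear terms there were 1.30 and 1.37 Nfe2l2 counts per Keap1 count in wt and 2.11 and 2.15 in Top2β-null MEF cells. There was thus more messenger of the activator per messenger of its inhibitor in both Top2β-null libraries.

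**Figure D2:**
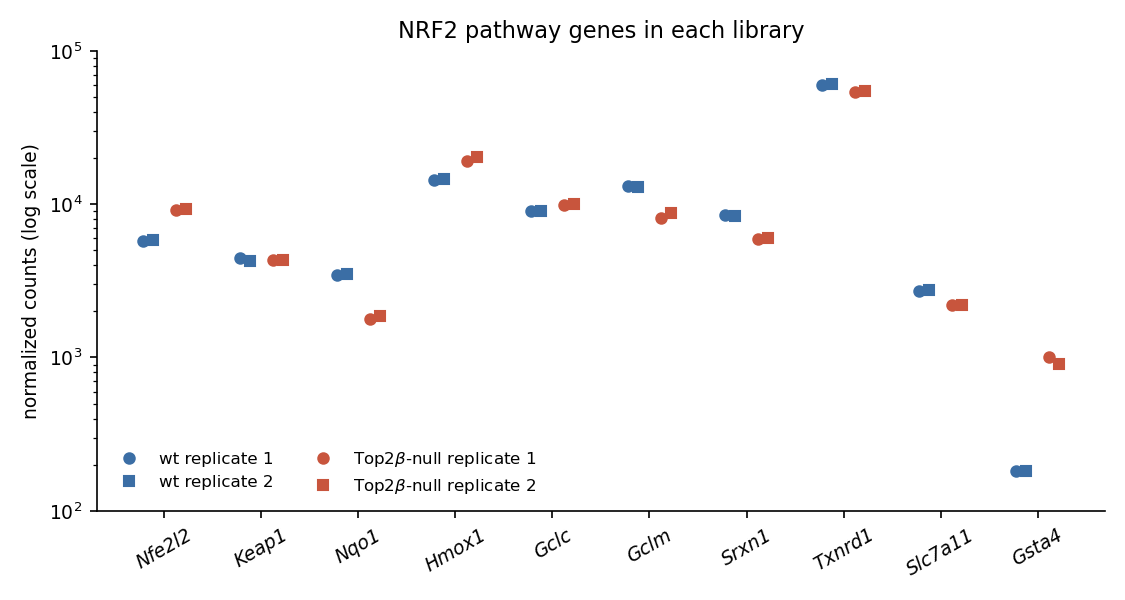
Normalized counts (log scale) of the 10 genes in each of the 4 libraries, wt in blue and Top2β-null in red, with circles for replicate 1 and squares for replicate 2. Replicates lie close together beside the distance between groups for Nqo1, Gclm and Gsta4, and the groups overlap for Keap1.

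Nqo1 (chromosome 8 from 107388225 to 107403206, reverse strand), the quinone reductase most often read as a sign of NRF2 activity, went the other way from Nfe2l2. It had 3453 and 3480.1 normalized counts in wt and 1781 and 1875 in Top2β-null MEF cells. Both Top2β-null libraries were below both wt libraries, with a mean at 52.7% of the wt mean (edgeR, log2 fold change -0.92, standard error 0.0422, adjusted p = 1.10e-11). The 95% interval of the log2 fold change, -1.01 to -0.83, reached past the cut-off of -1. Among genes of like abundance, 706 of 4612 genes (15.3%) changed at least as much. Nqo2, a related quinone reductase of the same family, was also lower, from 3767 ± 37.9 to 2472 ± 11.5 normalized counts (SD, n = 2; log2 fold change -0.61, adjusted p = 5.45e-10). The log2 ratio of Nqo1 to Nqo2 was -0.12 and -0.12 in wt and -0.48 and -0.39 in Top2β-null MEF cells, so the means lay -0.32 apart, with a replicate SD (pooled) of 0.0419 (exact permutation p = 0.333).

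Hmox1 (chromosome 8 from 75093621 to 75100589, forward strand) encodes the inducible haem oxygenase, which opens haem to biliverdin, iron and carbon monoxide and answers to several stress signals beside NRF2. It had 14291 and 14541 normalized counts in wt and 19234 and 20181 in Top2β-null MEF cells. The groups did not overlap, and Hmox1 was 1.37-fold higher in Top2β-null MEF cells (edgeR, log2 fold change 0.45, standard error 0.0275, adjusted p = 4.45e-10). Among genes of like abundance, 797 of 2521 genes (31.6%) changed at least as much. This was the opposite direction from Nqo1, although both genes are textbook NRF2 targets. The constitutive haem oxygenase Hmox2 was higher as well, from 1939 ± 80.5 to 2553 ± 49.7 normalized counts (SD, n = 2; log2 fold change 0.40, adjusted p = 1.14e-06). As a log2 ratio, Hmox1 to Hmox2 was 2.84 and 2.95 in wt and 2.93 and 2.96 in Top2β-null MEF cells. The groups overlapped in this ratio, and its difference of 0.054 was below the pooled replicate SD of 0.0568 (exact permutation p = 0.667). Bach1, a repressor that competes with NRF2 for these elements and is known for holding down Hmox1, was higher too (from 3583 ± 133 to 4527 ± 80.0 normalized counts; log2 fold change 0.34, adjusted p = 4.90e-07). Its name was added after its values were seen.

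The genes of glutathione synthesis split. Glutamate-cysteine ligase, which makes the first and limiting step, has a catalytic subunit encoded by Gclc and a modifier subunit encoded by Gclm that makes the enzyme more efficient. Gclc (chromosome 9 from 77754535 to 77794485, forward strand) had 8999 and 8975 normalized counts in wt and 9942 and 10068 in Top2β-null MEF cells. The Top2β-null libraries were above the wt libraries without overlap, by 1.11-fold (edgeR, log2 fold change 0.15, standard error 0.0250, adjusted p = 4.68e-05). Gclm (chromosome 3 from 122245557 to 122270732, forward strand) had 13199.7 and 12985 normalized counts in wt and 8141 and 8749 in Top2β-null MEF cells. These were below the wt libraries without overlap, with a mean at 64.5% of that in wt MEF cells (edgeR, log2 fold change -0.63, standard error 0.0312, adjusted p = 2.90e-11). Of genes of like abundance, 2655 of 3792 genes (70.0%) changed at least as much as Gclc and 684 of 3541 genes (19.3%) at least as much as Gclm.

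The subunits could be compared within each library. The log2 ratio of Gclm to Gclc was 0.55 and 0.53 in wt and -0.29 and -0.20 in Top2β-null MEF cells, so the means lay -0.79 apart, with a replicate SD (pooled) of 0.0441 (the largest difference of the 7 ratios computed; exact permutation p = 0.333). In raw counts, which also reflect the length of each transcript, there were 1.47 and 1.45 Gclm counts per Gclc count in wt libraries and 0.819 and 0.869 in Top2β-null libraries. Exons of Gclm share 296 bp or 4.71% of their length with Gm17494, which lies on the opposite strand, and 244 bp with the pseudogene Gm6061. Gm17494 was at 907 to 909 normalized counts in wt and at 614 to 648 in Top2β-null MEF cells. Gm6061 was lower as well, with 120 and 112 in wt and 76.6 and 83.2 in Top2β-null MEF cells (edgeR, log2 fold change -0.54, adjusted p = 0.0141). Reads of the shared stretches cannot be told apart here, and their part in the difference of Gclm was not tested.

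Slc7a11 (chromosome 3 from 49892526 to 50443614, reverse strand) encodes xCT, the transporter that brings in cystine for glutathione in exchange for glutamate. It had 2694 and 2762 normalized counts in wt and 2196 and 2212 in Top2β-null MEF cells. The Top2β-null libraries were lower without overlap, with a mean at 80.8% of that in wt MEF cells (edgeR, log2 fold change -0.31, standard error 0.0414, adjusted p = 6.65e-06). A change of this size or more was seen in 2436 of 4571 genes (53.3%) of like abundance. Slc3a2, the heavy chain that carries xCT to the membrane and also serves other transporters, was higher, from 20584 ± 60.4 to 23336 ± 379 normalized counts (log2 fold change 0.18, adjusted p = 8.12e-06). The log2 ratio of Slc7a11 to Slc3a2 was -2.94 and -2.89 in wt and -3.39 and -3.42 in Top2β-null MEF cells, so the means lay -0.49 apart, with a replicate SD (pooled) of 0.0240 (exact permutation p = 0.333).

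Of the genes of the thioredoxin and peroxiredoxin system, Srxn1 (chromosome 2 from 152105516 to 152111376, forward strand) encodes sulfiredoxin, which repairs overoxidized peroxiredoxins. It had 8524 and 8401 normalized counts in wt and 5900.2 and 5997 in Top2β-null MEF cells. The Top2β-null libraries were lower without overlap, with a mean at 70.3% of the wt mean (edgeR, log2 fold change -0.51, standard error 0.0266, adjusted p = 6.07e-11). A change at least as large was seen in 1147 of 4255 genes (27.0%) of like abundance. Prdx1, a substrate of sulfiredoxin, was lower by far less (log2 fold change -0.079, adjusted p = 0.0188), and its call was lost by DESeq2, by total count scaling and without replicate 1 of either group. The log2 ratio of Srxn1 to Prdx1 was -2.46 and -2.44 in wt and -2.88 and -2.88 in Top2β-null MEF cells, so the means lay -0.43 apart, with a replicate SD (pooled) of 0.0141 (exact permutation p = 0.333).

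Txnrd1 (chromosome 10 from 82833951 to 82897712, forward strand) encodes the cytosolic thioredoxin reductase, a selenoprotein that passes electrons from NADPH to thioredoxin. With 60248 and 61000.4 normalized counts in wt and 53849.8 and 54697 in Top2β-null MEF cells, it had the highest counts of the 10 genes. The Top2β-null libraries were lower without overlap, by a small amount, with a mean at 89.5% of the wt mean (edgeR, log2 fold change -0.16, standard error 0.0260, adjusted p = 5.21e-05). Among genes of like abundance, 396 of 554 genes (71.5%) changed at least as much. Its substrate thioredoxin (Txn1) was lower to a similar extent (log2 fold change -0.17, adjusted p = 2.59e-05), and the log2 ratio of Txnrd1 to Txn1 was 0.83 and 0.81 in wt and 0.81 and 0.85 in Top2β-null MEF cells. The groups overlapped in that ratio, and the difference of 0.010 was below the pooled replicate SD of 0.0212 (exact permutation p = 0.667).

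**Figure D3:**
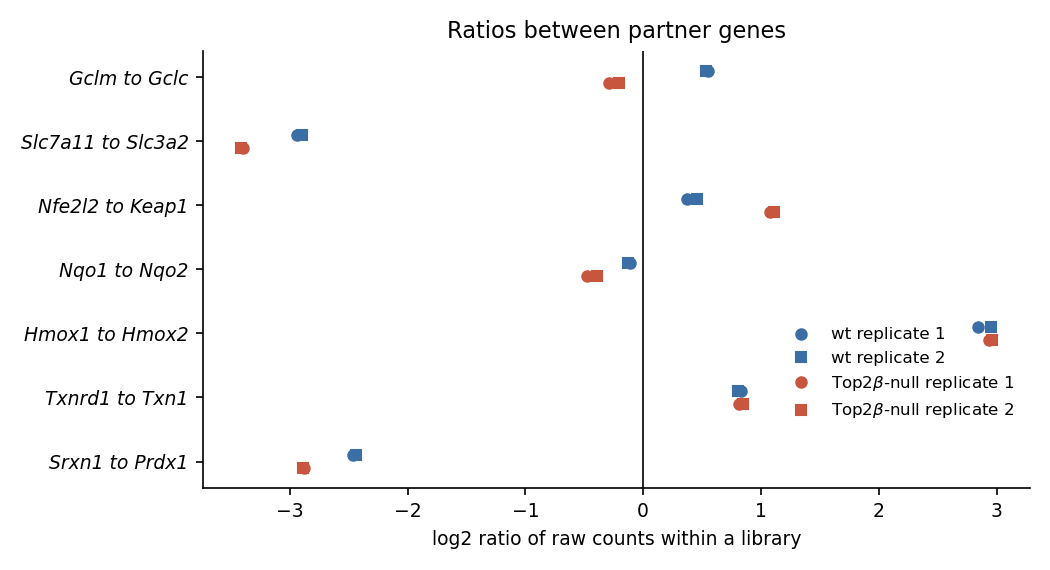
Log2 ratios of raw counts between partner genes within each library (wt blue, Top2β-null red, circles replicate 1, squares replicate 2). The ratio of Gclm to Gclc falls from above 0 in both wt libraries to below 0 in both Top2β-null libraries, and the groups overlap for Hmox1 to Hmox2 and for Txnrd1 to Txn1.

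Gsta4 (chromosome 9 from 78182774 to 78209349, forward strand) encodes a glutathione transferase that conjugates 4-hydroxynonenal and other products of lipid peroxidation. It showed the largest difference of the 10, with 181 and 182 normalized counts in wt and 1011 and 910.2 in Top2β-null MEF cells. The groups did not overlap, and Gsta4 was 5.30-fold higher in Top2β-null MEF cells (edgeR, log2 fold change 2.41, standard error 0.0847, adjusted p = 3.79e-13), with a 95% interval of 2.22 to 2.59 on the log2 scale. In counts it was also the least abundant of the 10, and 305 of 3756 genes (8.12%) of like abundance changed at least as much. The paralogs Gsta2 and Gsta3 had at most 10 counts in any library, and Gsta1 had 57 to 73 counts with a log2 fold change of -0.0079, adjusted p = 0.977. How reads that align to several family members were counted is not given in the sources used here. 

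**Figure D4:**
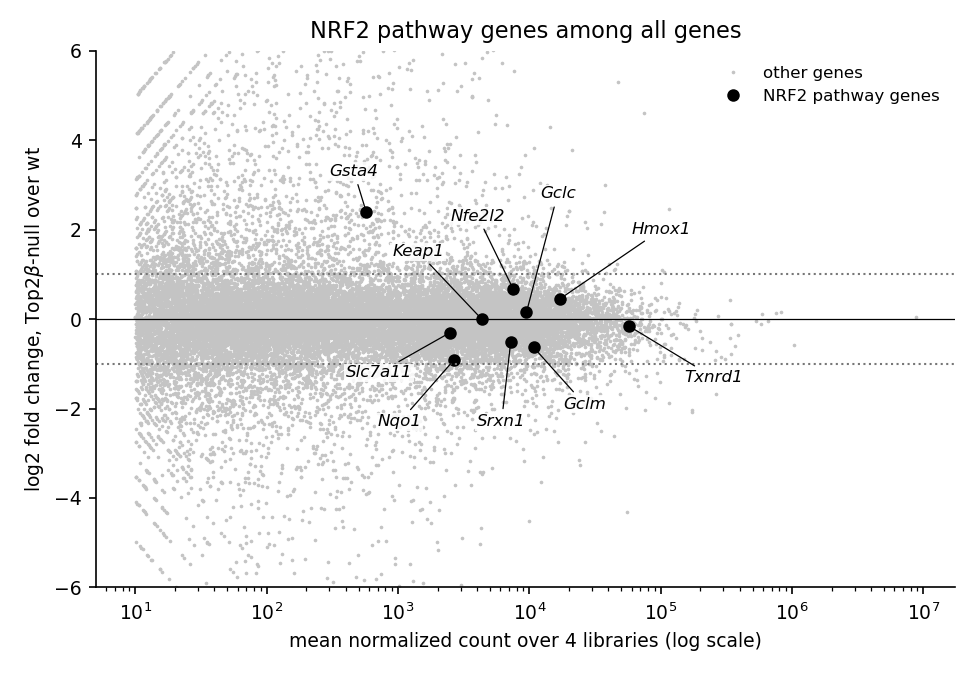
Log2 fold change in Top2β-null over wt MEF cells against mean normalized count (log scale), with the 10 genes as black points and other genes with a mean of at least 10 in grey. Dotted lines mark -1 and 1. In all, 23825 genes are drawn and 528 lie beyond the vertical axis. Apart from Gsta4, the 10 genes lie inside the dotted lines.

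To compare the genes with each other, normalized counts were divided by exon length (kb) and by the effective library size (counts per 1e6). In wt MEF cells Txnrd1 (60.8 ± 0.534 counts per kb and 1e6 counts, SD, n = 2) and Hmox1 (58.5 ± 0.717) had the highest levels. Srxn1 (21.3 ± 0.218), Gclc (17.0 ± 0.0318), Nqo1 (15.9 ± 0.0883), Gclm (14.8 ± 0.172), Nfe2l2 (10.9 ± 0.0841) and Keap1 (6.59 ± 0.214) followed, and Slc7a11 (1.39 ± 0.0248) and Gsta4 (1.02 ± 0.00366) were lowest. In Top2β-null MEF cells Hmox1 (80.0 ± 2.72) stood above Txnrd1 (54.4 ± 0.601). Nfe2l2 went from rank 7 to rank 4 (17.3 ± 0.291), above Srxn1 (15.0 ± 0.172), Gclm (9.54 ± 0.486) and Nqo1 (8.37 ± 0.303). Gsta4 (5.39 ± 0.399) came to lie above Slc7a11 (1.12 ± 0.00577). In both genotypes, the libraries of neighbouring genes in this order did not overlap. Exon length was taken over every annotated transcript, 13922 bp for Slc7a11 against 1266 bp for Gsta4, so the level of a gene with long rare isoforms is understated.

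The wider pathway was read from 8 further lists with 101 genes, of which 91 were tested. By the cut-offs of the study's methods 8 of these were called higher and 6 lower, and with an adjusted p below 0.05 alone 37 were higher, 44 lower and 10 did not pass. Of all genes tested, 5.52% were called higher and 5.25% lower by the cut-offs, and 32.8% and 33.7% by the adjusted p alone. Counts of higher and lower genes in each list below are by the adjusted p alone unless the cut-offs are named. They are to be read beside these shares. Of the 91 genes, 86 had a mean over 100 normalized counts, where 77.6% of all genes passed the adjusted p in either direction. Their median log2 fold change was -0.079, that of all genes tested -0.0058. Over the mean cut-off these medians were -0.15 for the 86 genes and -0.015 for all genes. Genes named below are those called by the cut-offs, or, in a list with no call, the one with the largest change, and genes given with the words added later were picked after their values were seen. Values are means ± SD with n = 2, and adjusted p-values are from edgeR.

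Among 13 regulators and partners of NRF2, 5 were higher and 5 lower with an adjusted p below 0.05 and none was called by the cut-offs (median -0.036). Of these, Maff was named by size of change, next to Sqstm1, with which it changed order without wt replicate 2 (-0.92 for Maff, -0.95 for Sqstm1). Maff, a small MAF protein and so a partner of NRF2, was lower, from 5503 ± 121 to 2887 ± 19.8 normalized counts (log2 fold change -0.93, adjusted p = 5.47e-13). The other small MAF genes moved less, Mafg at -0.21 and Mafk at 0.21 (added later). Of the KEAP1 ligase, the scaffold Cul3 was higher (log2 fold change 0.16, adjusted p = 2.11e-05) and the RING subunit Rbx1 lower (log2 fold change -0.68, adjusted p = 1.27e-12; both added later). Sqstm1, the autophagy receptor p62 that binds KEAP1 and is itself a known NRF2 target, was lower, from 46940.2 ± 464 to 24728 ± 169 normalized counts (log2 fold change -0.92, adjusted p = 1.48e-14; added later). The F-box genes Btrc and Fbxw11, whose products mark NRF2 for degradation independently of KEAP1, were both higher, with log2 fold changes of 0.37 and 0.29 (added later).

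Of 12 tested genes of glutathione synthesis and use, 6 were higher and 6 lower with an adjusted p below 0.05 (median -0.090, and -0.36 over the 11 genes past the mean cut-off). Glrx, the cytosolic glutaredoxin that removes glutathione from proteins, was called higher, from 929.8 ± 66.0 to 4155 ± 261 normalized counts (log2 fold change 2.16, adjusted p = 8.18e-15). Gss, which completes glutathione after glutamate-cysteine ligase, was lower (log2 fold change -0.67, adjusted p = 2.98e-09), as was Gpx4, the peroxidase that reduces lipid hydroperoxides (log2 fold change -0.68, adjusted p = 1.10e-12; both added later). Gsr, which regenerates reduced glutathione, was higher (log2 fold change 0.36, adjusted p = 5.09e-09; added later). Of 14 thioredoxin and peroxiredoxin genes, 5 were higher and 7 lower with an adjusted p below 0.05 (median -0.086). Txnip, which binds and inhibits thioredoxin, was called higher, from 1349 ± 1.46 to 3226 ± 38.9 normalized counts (log2 fold change 1.26, adjusted p = 2.90e-13), and Sesn1, a sestrin and known p53 target, was called lower, from 2256 ± 15.0 to 993 ± 16.3 normalized counts (log2 fold change -1.18, adjusted p = 2.69e-12). Below the cut-offs, mitochondrial thioredoxin Txn2 was lower (log2 fold change -0.97, adjusted p = 1.96e-14) and Prdx5 higher (log2 fold change 0.96, adjusted p = 1.34e-14; both added later).

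Of the 8 genes of NADPH supply, 4 were higher and 4 lower with an adjusted p below 0.05, beside 32.8% and 33.7% of all genes (median 0.13). All 8 were over the mean cut-off, where 77.6% of all genes passed in either direction. Pgls, the lactonase of the pentose phosphate pathway, was called higher, from 2828 ± 81.7 to 6749 ± 9.11 normalized counts (log2 fold change 1.25, adjusted p = 7.22e-15). The steps on either side of it, which make the NADPH, were lower (G6pdx, log2 fold change -0.41, adjusted p = 1.56e-09, and Pgd, log2 fold change -0.54, adjusted p = 1.36e-11), whereas the isocitrate dehydrogenases, which also make NADPH, were higher (Idh1, log2 fold change 0.90, adjusted p = 2.88e-12, and Idh2, log2 fold change 0.64, adjusted p = 2.21e-12; all 4 added later).

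Of 22 glutathione transferases other than Gsta4, 14 were tested, and of these 8 were higher and 5 lower with an adjusted p below 0.05. Past the cut-offs 4 rose and 1 fell, beside 5.52% and 5.25% of all genes, and the median was 0.38 (0.56 over the 13 genes past the mean cut-off). The 4 became 5 by total count scaling, and 3 with at least 100 counts required of each library. The microsomal transferases, which work on lipid peroxides in membranes, moved apart: Mgst1 went from 197 ± 10.3 to 1874 ± 128 normalized counts (log2 fold change 3.25, adjusted p = 1.99e-15) and Mgst2 from 26.1 ± 5.47 to 236 ± 5.29 normalized counts (log2 fold change 3.16, adjusted p = 3.78e-10; without either Top2β-null library its mean fell below 100 and the call was lost), while Mgst3 went from 1081 ± 2.88 to 352 ± 42.6 normalized counts (log2 fold change -1.62, adjusted p = 1.54e-11). Gstm5 was called higher, from 369.5 ± 22.7 to 1448 ± 10.1 normalized counts (log2 fold change 1.97, adjusted p = 1.40e-13), and so was Gstt1, from 117 ± 13.1 to 498 ± 3.62 normalized counts (log2 fold change 2.08, adjusted p = 5.07e-11). Gstm1 and Gstp1, abundant transferases and known NRF2 targets, were lower, with log2 fold changes of -0.92 and -0.49, whereas Gsto1, an omega class transferase with more counts than either, was higher (log2 fold change 0.56, adjusted p = 8.75e-12; all 3 added later). Transferases of the mu and pi classes have close copies in tandem, so reads could be split between them.

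Among 14 other genes of detoxification and export, 4 were higher and 7 lower by the adjusted p. None was called by the cut-offs (median -0.15, and -0.31 over the 11 genes past the mean cut-off). Abcc4, an export pump for conjugates and nucleotides, had the largest change in either direction among those over the mean cut-off, from 10626 ± 322 to 5466 ± 100.2 normalized counts (log2 fold change -0.96, adjusted p = 5.20e-14), and it passed the cut-off at -1.004 without wt replicate 2. Of 10 genes of haem and iron handling, 3 were higher and 7 lower by the adjusted p (median -0.22). Called lower were Slc48a1, which carries haem out of endosomes and lysosomes (from 22996 ± 507 to 5971 ± 18.2 normalized counts; log2 fold change -1.95, adjusted p = 3.26e-18), and Slc40a1, the iron exporter ferroportin (from 217 ± 31.6 to 92.1 ± 5.68 normalized counts; log2 fold change -1.24, adjusted p = 3.17e-06), which was not tested and so lost its call where each library had to have 100 counts. The ferritin chains, which store the iron that haem oxygenase releases, moved apart, with Fth1 at 0.46 and Ftl1 at -0.31 (added later). Both have many processed pseudogenes that can take some of their reads.

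In the list of superoxide dismutases, catalase and metallothioneins, 2 of 6 were higher and 3 lower by the adjusted p (median -0.36). Sod3, the extracellular superoxide dismutase, was called lower, from 1530.0 ± 68.3 to 181 ± 10.0 normalized counts (log2 fold change -3.08, adjusted p = 3.41e-15). Cat, the catalase of peroxisomes, was called lower as well, from 6659.9 ± 208 to 2841 ± 35.6 normalized counts (log2 fold change -1.23, adjusted p = 1.45e-14). Mt1, a metallothionein that binds zinc and is induced by metals and oxidants, was called higher, from 8161 ± 294 to 16607 ± 239 normalized counts (log2 fold change 1.02, adjusted p = 1.80e-14), a call that was lost at 0.97 without wt replicate 1. Sod1, the cytosolic dismutase, did not pass (log2 fold change 0.055, adjusted p = 0.117), but did by total count scaling, unfiltered and without Top2β-null replicate 1 (added later).

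**Figure D5:**
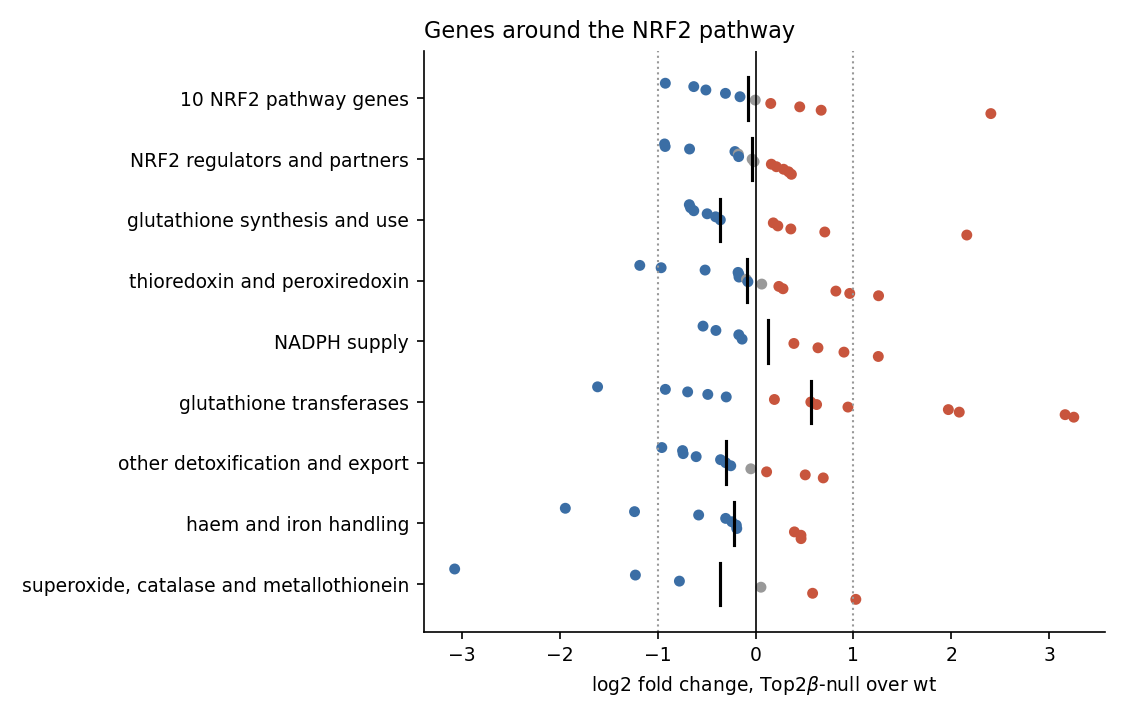
Log2 fold change in Top2β-null over wt MEF cells of the 10 genes and of the genes of 8 further lists with a mean over 100 normalized counts (1 point a gene, red higher and blue lower with an adjusted p below 0.05, grey not passing; vertical bar, median of the genes drawn). Every list has genes on both sides of 0, and the glutathione transferases reach from -1.62 to 3.25.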

How the data were processed

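RNA was measured in 4 libraries, grouped by their labels (2 wt, 2 Top2β-null). Per the methods, the authors ran Trim Galore! on the read pairs, used STAR for alignment to mm10 with multiply aligned reads retained, and obtained counts for Gencode genes and for repeat families from TEtranscripts. These deposited counts are integers and were not normalized. Gene symbols, positions and exon lengths came from GENCODE M21 on GRCm38, matched by identifier without version (54495 of 54842).

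In R 4.3.3 with edgeR 4.0.16, a feature entered the fit with 10 or more counts in 2 or more libraries, which left 25085 genes and 1481 repeat families. TMM factors were computed over all of them, and a quasi-likelihood model with genotype as its only term was fitted. Standard errors were derived from each fold change and its F statistic. Alternatives were DESeq2 1.42.0, other scalings and filters, a replicate block and each library left out. The fits were tested on simulated data with the same dispersion for every feature and only with changes larger than the log2 cut-off. That test does not cover smaller changes. Replicates were not duplicates of each other, since a chi-square of their counts divided by its degrees of freedom was 3.65 for wt and 5.07 for Top2β-null.

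The 10 genes and the 8 lists were chosen with earlier results of these data known. Named genes are the 10, their partners in ratios, and from each list the genes called by the study's cut-offs or, with none called, the gene over the mean cut-off with the largest change. Genes outside this rule (marked as added later, with Bach1, Gsta1, Gsta2 and Gsta3 beside the genes they bear on) were picked after their values were seen.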

Additional observations from a re-analysis of the deposited data

How the results depend on the processing

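Over 10 alternatives each (6 with all libraries and 4 with 1 library left out), the 9 genes other than Keap1 kept their direction and an adjusted p below 0.05 (edgeR or DESeq2). With all libraries, their log2 fold changes ran from 2.40 to 2.47 for Gsta4, 0.67 to 0.74 for Nfe2l2, 0.45 to 0.52 for Hmox1, 0.15 to 0.22 for Gclc, -0.16 to -0.090 for Txnrd1, -0.31 to -0.24 for Slc7a11, -0.51 to -0.44 for Srxn1, -0.63 to -0.56 for Gclm and -0.92 to -0.85 for Nqo1. The highest adjusted p among these was 0.00849, for Txnrd1. Keap1 stayed without a call and changed sign around 0, with 0.0041 by DESeq2, 0.0084 where repeats did not enter the TMM factors, 0.013 unfiltered, 0.066 by total count scaling, 0.0030 where each library had to have 100 counts or more, and -0.051 to 0.036 with a library left out. In every alternative that kept the cut-offs of the study's methods, 1 of the 10 was called higher and 0 lower, against 4 and 5 where an adjusted p below 0.05 sufficed.

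Under the filter of 100 counts per library, 816 genes of all were called higher in place of 1385, and 1 in place of 2 of haem and iron handling was called lower (Slc40a1 was not tested), since this filter removes genes with fewer counts in any library. Scaling to the total count called 2 thioredoxin and peroxiredoxin genes higher in place of 1 (Prdx5 passed at 1.03), and 5 transferases in place of 4, where the filter of 100 counts gave 3. Leaving out a library moved the count of thioredoxin and peroxiredoxin genes called higher to between 1 and 2 (2 without Top2β-null replicate 1), the count of detoxification genes called lower to between 0 and 1 (1 without wt replicate 2), and that of metallothionein and antioxidant enzyme genes called higher to between 0 and 1 (0 without wt replicate 1). In each, a gene close to a log2 change of 1 crossed it (Prdx5 at 1.02, Abcc4 at -1.004, Mt1 at 0.97), and Mgst2 lost its call without either Top2β-null library, at a mean of 97.0 and 97.4 normalized counts. A fit without a library assumes that the lone library of its group varies like the other group. Prdx1 lost its call at -0.071 by DESeq2, -0.0088 by total count scaling, and -0.069 and -0.024 without replicate 1 of wt or Top2β-null. Sod1 passed at 0.12 by total count scaling, 0.072 unfiltered and 0.14 without Top2β-null replicate 1. Gsta1, which never passed, changed sign to 0.00089 by DESeq2, 0.0042 with repeats out of the TMM factors, 0.062 by total count scaling, 0.0092 unfiltered, and -0.15 to 0.14 with a library left out. With the replicate number as a replicate block, Nqo1 was at -0.92 and Nfe2l2 at 0.67, and no call on the 10 changed. Deviations of same-numbered libraries correlated at 0.018 across 17948 features, which are not independent, so the numbers are not shown to pair the libraries.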
